A study of Mus musculus with 13 samples.

Results

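Hair follicle cells were compared with all 3 groups of small intestinal epithelium measured in the same array study, and the genes described are those for which the hair follicle lay above, or below, every intestinal group. All 13 arrays of the series entered the comparison. It held 3 arrays of FACS-sorted hair follicle cells, 4 arrays of crypt cells with high GFP (GFPbright), 3 arrays of crypt cells with low GFP (intestinal GFPdim) and 3 arrays of villus epithelium. Of 17097 genes with a probe set of their own, 2350 were above all 3 intestinal groups and 2370 were below all 3.

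All cells came from Lgr5-EGFP-ires-CreERT2 mice of the C57BL/6 strain, in which GFP and an inducible Cre are made from the Lgr5 locus. GFP therefore reports the promoter of a stem cell gene and not a tissue, and no group lacks the knock-in allele. The labels and methods used here name no inducer treatment and neither age nor sex of the mice. The labels describe sorts that each pooled 3 mice, so p-values measure the spread between such pools. GFPbright cells are crypt base stem cells by the study's definition, GFPdim cells their close descendants, and villus samples the differentiated end of the same lineage. Crypts were released with chelators and dissociated with trypsin and DNAse before sorting. Skin cells were isolated in a related way, with longer trypsin treatment in some cases and hair bulges collected by scraping, and whether villus cells passed a sorting gate is not clear from the methods. Tissue and isolation cannot be told apart here. A label field for the Lgr5 level goes against the titles of GFPbright replicate 2 and of GFPdim replicates 2 and 3, and it calls the hair follicle samples high although their titles give GFPdim. Groups were taken from titles and source names.

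Skin and gut epithelium are built on different plans. The hair follicle is part of a stratified epithelium that rests on a basement membrane through hemidesmosomes, holds its cells together with desmosomes, uses keratins 5 and 14 in its basal layer and depends on the transcription factor p63 (Trp63). The small intestine is lined by a single layer of columnar cells with simple keratins, an apical brush border and a transcription factor network that includes Cdx2 and Hnf4a. Lgr5 marks stem cells in both.

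Values are intensities on a linear scale, 1 per probe set and array. The median of an array ranged from 7.8 to 8.7 and its 75th percentile from 37.6 to 52.1. Across genes, the log2 values of the 3 hair follicle arrays correlated at 0.978 to 0.989 with each other, at 0.765 to 0.824 with crypt arrays and at 0.685 to 0.699 with villus arrays, against 0.819 to 0.891 between crypt and villus arrays (genes are not independent replicates). Among the hair follicle arrays, replicate 2 stood closest to the GFPbright mean, at 0.819 against 0.796 and 0.781. Its title shares a code with those of GFPbright replicate 3 and GFPdim replicate 2, which is read here as the same sort. As a guide to absent signal, the values of 84 probe sets of chemosensory receptor genes (Olfr, Vmn and Tas2r families) were pooled over all arrays. Of these values, 95 percent lay at or under an intensity of 7.9, called the receptor level here. A fold against a group with a mean under that level is given against the level itself and written as "at least". In these bulk samples, fewer cells of a type and less RNA per cell cannot be told apart.

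The tissue labels were checked first. Krt14, the acidic keratin of basal cells, read 5549, 3947 and 7179 in the 3 hair follicle samples, 5.3, 4.5, 4.4 and 5.1 in GFPbright, 5.5, 6.1 and 5.6 in GFPdim and 6.0, 6.4 and 6.3 in villus. Trp63 gave 732, 717 and 488 in hair follicle, 3.7, 4.1, 2.9 and 4.0 in GFPbright, 3.7, 2.9 and 3.9 in GFPdim and 3.0, 3.6 and 3.8 in villus. Lgals7, a galectin of stratified epithelia, gave 5155, 5974 and 4052 in hair follicle, 6.9, 7.7, 6.3 and 7.1 in GFPbright, 7.0, 7.2 and 9.2 in GFPdim and 7.3, 9.2 and 8.8 in villus. All 3 skin markers were high in each hair follicle array and near or under the receptor level in each intestinal array. Hair follicle exceeded the nearest intestinal group by at least 683-fold for Krt14 and at least 80.3-fold for Trp63, and by 9.22 log2 for Lgals7, whose intestinal values straddle the receptor level, with a largest adjusted p in limma of 2.18e-14, 5.99e-13 and 2.00e-14.

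The intestinal markers ran the other way. Cdx2, which sets and keeps intestinal identity, read 9.2, 8.0 and 9.1 in hair follicle, 458, 430.1, 555 and 509.6 in GFPbright, 292, 595 and 406 in GFPdim and 463, 364 and 399 in villus. Hnf4a, a nuclear receptor of gut and liver epithelium, read 7.3, 7.1 and 10 in hair follicle, 2475, 2660.1, 2374 and 2263 in GFPbright, 2036, 1932 and 1910.5 in GFPdim and 2179, 2367 and 2219 in villus. Both were present at every intestinal stage, without overlap with the hair follicle arrays, which lay around the receptor level. The log2 difference of hair follicle to the nearest intestinal group was -5.54 for Cdx2 and -7.93 for Hnf4a (limma, largest adjusted p = 3.25e-11 and 1.68e-14). No fold is given against follicle values so near the receptor level. All 5 markers followed the tissue labels. Lgr5 itself did not divide the tissues. It read 479, 539.7 and 687 in hair follicle and 793, 533, 576 and 697 in GFPbright, which overlapped, but 12.6, 66.1 and 14 in GFPdim and 6.8, 4.8 and 6.6 in villus.

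**Figure D1:**
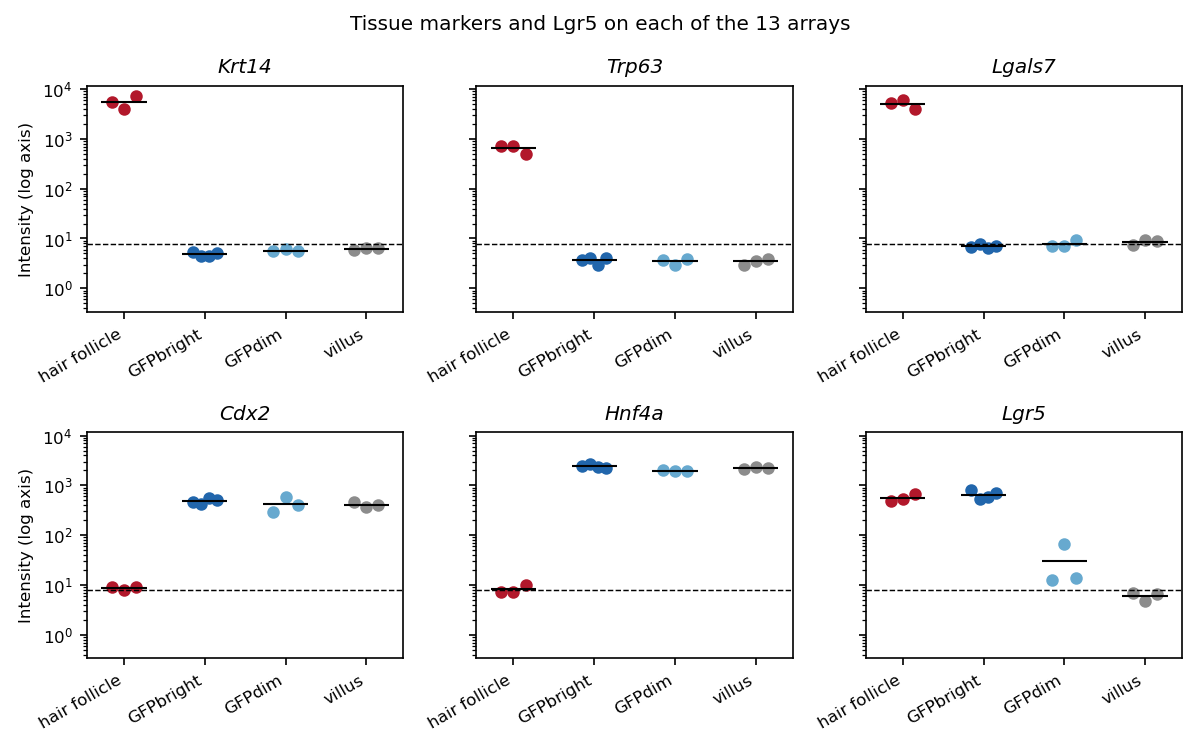
Intensity on a log axis of 5 tissue markers and Lgr5 on each of the 13 arrays, with 1 point per array, a line at the group mean and a dashed line at the receptor level of 7.9. Krt14, Trp63 and Lgals7 are high only in hair follicle, Cdx2 and Hnf4a in all 3 intestinal groups, and Lgr5 in hair follicle and GFPbright.

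For each gene the mean of the 3 hair follicle arrays was set against the mean of the 3 intestinal group means, each group with equal weight, in a limma fit to the log2 values of all 13 arrays. This contrast was positive at a Benjamini-Hochberg adjusted p under 0.05 for 3936 genes (23% of those tested) and negative for 4924 genes (28.8%). An average can hide a gene that only 1 stage carries, so a gene was called above or below all 3 when hair follicle differed from each group in the same direction with all 3 adjusted p under 0.05. This left 2350 genes above (13.7%) and 2370 below (13.9%). Of all genes, 2346 (13.7%) had each hair follicle array above all 10 intestinal arrays and 2484 (14.5%) had each below. Both conditions were met by 2204 genes above and 2215 below.

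Many genes that differed from 1 intestinal group did not differ in the same direction from all 3. Hair follicle was higher than GFPbright for 3321 genes, of which 70.8% were above all 3, and higher than villus for 4607, of which 51% were. On the lower side the shares were 47.6% of 4980 genes for GFPbright, 55.1% of 4304 for GFPdim and 50.6% of 4685 for villus. For 1388 genes the direction turned with the stage, and 1018 of these were lower in hair follicle than in GFPbright but higher than in villus. These comparisons share the hair follicle arrays.

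How far a called gene stood apart is given by its margin, the log2 difference to the nearest intestinal group mean. The median margin was 1.38 for genes above and 1.17 for genes below. At least 1 was reached by 1499 and 1367 genes, at least 3 by 479 and 301, and at least 5 by 156 and 90. On the other side of the difference, all intestinal groups lay under the receptor level for 740 of the genes above (31.5%), and hair follicle did for 443 of the genes below (18.7%). Some genes at the foot of both sets thus differ only within the range of absent signal, such as Aldh3b2, with 6.3, 6.8 and 7.1 in hair follicle and 4.3 to 5.2 in the intestine, and no fold is given for them.

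**Figure D2:**
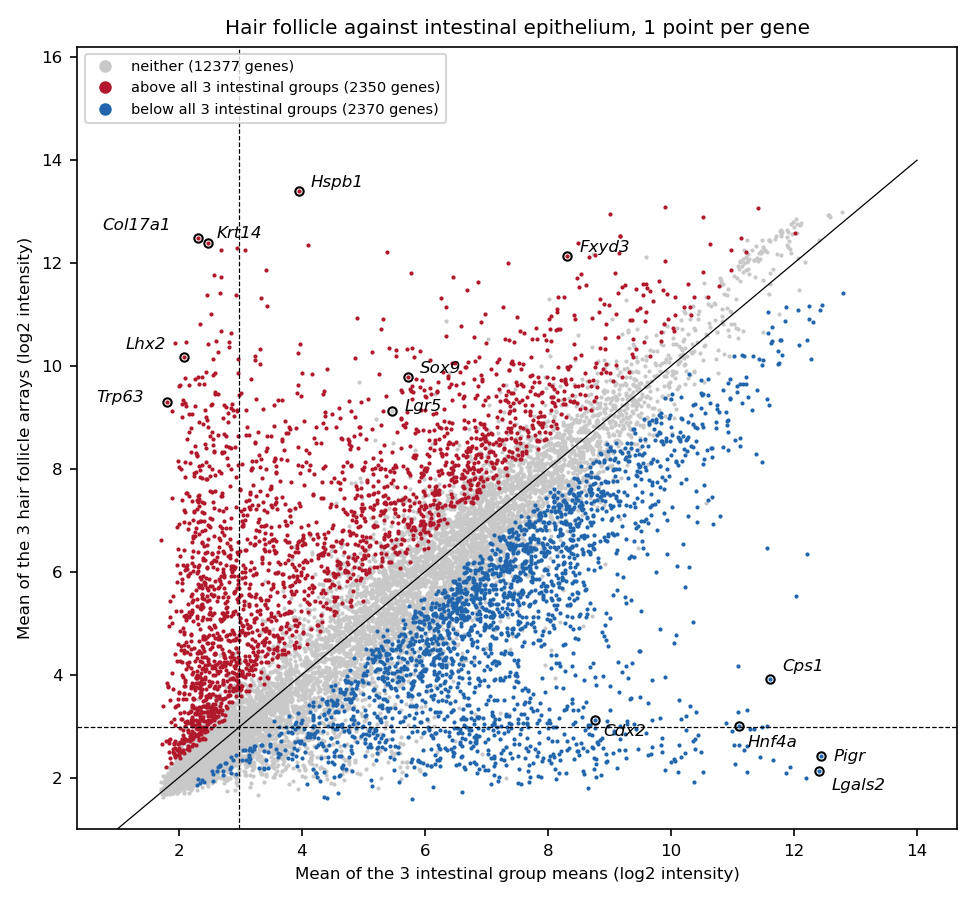
Mean of the 3 hair follicle arrays against the mean of the 3 intestinal group means, both as log2 intensity, with 1 point per gene. Red points are the 2350 genes above all 3 groups, blue points the 2370 genes below, dashed lines the receptor level, and genes with no intestinal signal form the column at the left while genes with no follicle signal form the row at the foot.

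The split between higher and lower calls depends on the scaling between arrays. The authors' normalization puts the arrays on a like distribution, and 49.8% of the calls were above. The 24 probe sets for bacterial RNAs that are spiked in ahead of labelling (poly-A controls) were brighter in hair follicle, with a mean log2 of 6.65 against 5.82 in GFPbright, 5.54 in GFPdim and 5.01 in villus, and 20 of them were above all 3. The 18 hybridization controls, added after labelling, had a mean contrast of 0.45 and none was called. With every array set to the poly-A controls, the median contrast of all genes moved from -0.06 to -1.26, and 809 genes were above and 10344 below, so that 7.3% of the calls were above. Set to the hybridization controls, it moved to -0.51 with 1397 above and 3698 below (27.4% above). The 2370 genes below were called under both scalings, and all 809 and 1397 genes above belonged to the 2350. Since each scaling lowers hair follicle against the gut at every gene, this overlap follows largely from that shift. Both scalings were chosen after the data had been seen, and they move absent signal along with present signal. They lower all genes together, so a changed balance of calls within a group follows from that shift and is no property of the group. Directions below are those of the deposited normalization, relative to a median contrast of -0.06. Counts and medians after the poly-A scaling stand beside them and are to be read against 809 genes above, 10344 below and a median of -1.26.

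The 15 genes with the largest margins above all 3 began with Col17a1, Krt14, Dmkn, Lgals7 and Hspb1. Col17a1, the transmembrane collagen of hemidesmosomes, had the largest margin, with 5946, 4911 and 6464 in hair follicle and 3.9 to 6.6 over the 10 intestinal arrays, at least 726-fold higher (limma, contrast 10.17 ± 0.14, largest of the 3 adjusted p = 1.64e-14). Krt5, the partner of Krt14, read 4961, 5335 and 4418 in hair follicle, with a lowest, median and highest intestinal value of 5.7, 7.7 and 15.8. Dsc3, a desmocollin of basal layers, read 2138, 1840.5 and 2210.2 against 5.1, 5.8 and 6.9. In these 3 genes the lowest follicle array was far above the highest intestinal array.

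Dmkn, Postn, Ccn2 and Krtdap belong to the same 15 genes. Dmkn, which encodes the secreted protein dermokine, gave 4830, 4736 and 5039 in hair follicle and 5.1 to 7.5 in the intestine. Postn (periostin) gave 3414, 2897 and 4265 against 4.6 to 10, and Ccn2, a matricellular protein, gave 3253, 3487 and 3398 against 4.3 to 9.9. Their intestinal values lay around or under the receptor level. Krtdap varied most within the follicle group among the 15 genes with the largest margins, with 1222, 3009 and 1571 against 4.6 to 6.1 in the intestine, and its margin was still 8.33.

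These 15 genes also held Gja1 (connexin 43), Serpinb2, Tenm2, Anxa8, Apoe and the small heat shock protein gene Hspb1. Hspb1 read 10532, 10585 and 11314 in hair follicle and 11 to 24.2 in the intestine. Apoe, which carries lipids and is made by many cell types, read 3895, 2461 and 5342 against 7.1 to 13.7. Gja1 read 2528, 2741 and 2944 against 5.1 to 15.2, with the highest intestinal values in villus replicates 1 and 2. The hair follicle group was higher by at least 177-fold for Serpinb2, by at least 180.0-fold for Tenm2 and by at least 336-fold for Anxa8. Of the 4 probe sets of Tenm2, 2 made this call and none made the opposite call.

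The 15 largest margins below all 3 began with Pigr, Lgals2, Lypd8, Plac8 and Fabp2, and Hnf4a was among them. Pigr, the receptor that carries IgA across the epithelium, read 6.5, 4.3 and 5.4 in hair follicle, 5053, 4837, 4012 and 5058 in GFPbright, 4457, 4148 and 5623 in GFPdim and 8171, 7573 and 7178 in villus. Hair follicle was at least 595-fold lower than the nearest group (limma, contrast -10.02 ± 0.13, largest adjusted p = 1.65e-14). Lgals2, a galectin, read 4.1, 4.5 and 4.5 in hair follicle and 3276, 5596 and 9009 in the intestine. Lypd8, a secreted antibacterial protein, read 3.7, 4.3 and 4.0 against 2771, 5109.8 and 6212. In hair follicle all 3 genes lay under the receptor level on every array.

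Several others in that set rose further along the lineage while already being high in stem cells. Fabp2, the intestinal fatty acid binding protein, read 3.7, 4.9 and 4.3 in hair follicle, 1116, 1469.8, 1814 and 1540.2 in GFPbright, 3670, 3942 and 3707 in GFPdim and 9761, 9559 and 8889 in villus. Cdh17, the liver-intestine cadherin, read 6.5, 4.7 and 7.4 in hair follicle, 1330, 1207, 1529 and 1383 in GFPbright, 1288, 2151 and 2294 in GFPdim and 5486, 5693 and 5337 in villus. The crypt groups already exceeded hair follicle by at least 185-fold and at least 172-fold, and villus was higher again.

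Muc13, a membrane mucin, Plac8, Prap1 and Reg3b, an antibacterial lectin, followed that order too, with GFPbright nearest to hair follicle. Reg3b varied within GFPbright, at 1449, 528, 2208 and 584, and still lay apart from the 7.1, 5.0 and 4.1 of hair follicle. Ccl25, the chemokine that draws T cells to the small intestine, read 7.5, 10.2 and 13 in hair follicle and 1748, 2243 and 3414 in the intestine. Cldn7, a claudin of the lateral membrane, read 9.5, 8.6 and 6.2 against 2285, 2749 and 4112. B4galnt2, a glycosyltransferase, Calml4 and 2210407C18Rik complete the 15 largest margins, at -8.05, -7.87 and -8.04.

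The 250 bases ahead of the listed start are shown for 3 leading genes of each direction and for Cdx2, as examples of how the start regions of the extreme genes differ. They come from RefSeq on GRCm38.p6 and were taken where the listed start lies within 100 bases of the end of the gene model. Capitals mark matches, on either strand, to any of the motifs searched. The general promoter elements were the TATA box, spelled TATAAA, the element spelled CCAAT, and the GC box, spelled GGGCGG. The motifs named for factor families were the AP-1 site, spelled TGACTCA, the site of zinc finger factors of the Gata family, spelled AGATAA, the Cdx site, spelled TTTATG, the box of Kruppel-like factors, spelled CCACCC, the Ets core, spelled CCGGAAG, the Hnf1 half-site, spelled GTTAAT, the pair of Hnf4 half-sites, spelled CAAAGTCCA, and the E-box, spelled CACGTG. Matches may overlap, as in the runs of capitals of Col17a1 and Lgals2 that are longer than 1 motif.
Col17a1 (chr19:47692043-47692292, minus strand): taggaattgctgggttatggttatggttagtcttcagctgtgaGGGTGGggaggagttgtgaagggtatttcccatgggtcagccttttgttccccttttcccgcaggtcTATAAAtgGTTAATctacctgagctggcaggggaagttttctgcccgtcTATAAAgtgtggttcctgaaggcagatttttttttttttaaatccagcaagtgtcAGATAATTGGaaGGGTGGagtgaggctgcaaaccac
Dmkn (chr7:30763506-30763755, plus strand): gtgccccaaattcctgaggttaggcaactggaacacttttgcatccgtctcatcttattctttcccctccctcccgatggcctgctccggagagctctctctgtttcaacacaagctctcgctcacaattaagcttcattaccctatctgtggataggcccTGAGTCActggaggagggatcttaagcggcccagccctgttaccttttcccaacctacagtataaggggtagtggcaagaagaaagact
Hspb1 (chr5:135887669-135887918, plus strand): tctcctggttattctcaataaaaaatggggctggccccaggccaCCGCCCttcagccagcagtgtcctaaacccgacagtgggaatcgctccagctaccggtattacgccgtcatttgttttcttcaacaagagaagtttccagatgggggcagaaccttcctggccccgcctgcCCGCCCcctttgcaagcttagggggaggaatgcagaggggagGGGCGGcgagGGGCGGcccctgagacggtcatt
Pigr (chr1:130826434-130826683, plus strand): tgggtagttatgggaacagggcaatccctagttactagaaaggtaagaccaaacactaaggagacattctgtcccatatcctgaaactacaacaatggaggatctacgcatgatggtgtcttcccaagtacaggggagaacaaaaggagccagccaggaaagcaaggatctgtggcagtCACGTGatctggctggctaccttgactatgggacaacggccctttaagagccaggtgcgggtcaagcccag
Lgals2 (chr15:78855530-78855779, minus strand): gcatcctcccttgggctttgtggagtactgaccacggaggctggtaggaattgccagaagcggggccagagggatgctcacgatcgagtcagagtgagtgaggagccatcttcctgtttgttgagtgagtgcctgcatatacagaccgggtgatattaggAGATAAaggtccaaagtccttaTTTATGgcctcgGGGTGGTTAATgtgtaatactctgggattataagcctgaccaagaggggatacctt
Lypd8 (chr11:58378782-58379031, plus strand): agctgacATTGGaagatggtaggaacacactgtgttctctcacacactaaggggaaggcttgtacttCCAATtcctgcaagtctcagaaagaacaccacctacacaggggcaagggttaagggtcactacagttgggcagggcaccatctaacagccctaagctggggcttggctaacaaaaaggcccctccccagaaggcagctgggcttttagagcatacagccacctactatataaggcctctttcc
Cdx2 (chr5:147307250-147307499, minus strand): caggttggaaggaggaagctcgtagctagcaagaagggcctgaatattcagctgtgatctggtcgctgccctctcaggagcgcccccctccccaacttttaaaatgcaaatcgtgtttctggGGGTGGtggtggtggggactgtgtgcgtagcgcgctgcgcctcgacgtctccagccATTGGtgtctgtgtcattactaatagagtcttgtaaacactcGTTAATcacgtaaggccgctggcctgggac

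Col17a1 had 2 TATA boxes, 140 and 91 bases ahead of its start, and 2 CpG in the bases shown. Hspb1 had 4 GC boxes and 12 CpG. Dmkn had a single match, to the AP-1 motif, 89 bases ahead. On the gut side, Lgals2 held a GATA match 90 bases ahead, a CDX match 68 bases ahead and an HNF1 match 51 bases ahead, while Pigr held an E-box alone and Lypd8 no CpG at all. A match is a run of letters and not a bound site.

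Across all genes with a listed promoter (13514, of which 1839 were above and 1941 below), the called genes as a whole were not poor in CpG. The median CpG count in the 300-base window from 250 bases ahead of the start to 50 bases after it was 17 for all genes, 22 for genes above and 19 for genes below. For genes with a margin of at least 5, called strong here, it was 13 for the 122 genes above and 4 for the 74 genes below. A GC box was present in 54.1% of all promoters, in 50% of the strong genes above and in 24.3% of the strong genes below, while over all called genes it was in 68.9% above and 59.9% below. A TATA box was present in 10.1% of all promoters, against 18.0% and 17.6% of the strong genes and 8.3% and 8.4% of all called genes. For both elements the strong genes and the called genes as a whole thus lay on opposite sides of the share over all promoters.

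Among motifs named for tissue factors, the AP-1 motif was found in 4.4% of all promoters, in 10.7% of strong genes above (13 promoters) and in 5.4% of strong genes below (4 promoters). The GATA motif was found in 8.0% of all, 9.0% of strong genes above and 17.6% of strong genes below. The CDX motif was found in 8.2% of all, 11.5% of strong genes above and 14.9% of strong genes below. The ETS core was in 13.8% of all promoters, in 3.3% and 5.4% of the strong genes above and below, and in 9.5% and 20.9% of all called genes above and below, so that the genes below differed in direction between the strong and the whole set. Over all called genes AP-1 was at 4.7% above and 4.8% below, GATA at 5.7% and 8.0%, and CDX at 6.8% and 7.8%. There the Hnf4 pair was at 0.2% and 0.7%, Hnf1 at 3.9% and 4.9%, the Kruppel-like box at 41.3% and 35.9%, and the E-box at 10.8% and 9.9%. These shares are descriptions, and 74.9% of the listed starts lie within 100 bases of the end of the gene model.

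Lists of genes with known roles were read next, each by the number of measured members above or below all 3 groups, beside 13.7% and 13.9% of all genes, and by the median contrast, beside -0.06 for all genes. Members and lists were chosen with earlier results of these data known, so their shares are descriptions and no independent support. Of 17 epidermal transcription factors, 13 were above and none below, with a median contrast of 3.12 (10 above and 3 below after scaling to the poly-A controls). Tfap2b, an AP-2 factor, read 278, 279 and 301 in hair follicle and 3.6 to 4.6 in the intestine. Gata3, a regulator of the inner root sheath and epidermis, read 169, 319.6 and 303 against 4.2 to 5.9, and Tfap2a read 154, 160.2 and 151 against 4.2 to 5.7. With Trp63, these are 4 factors whose intestinal values were at absent signal in stem cells, descendants and villus alike.

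Hair follicle stem cell transcription factors were above in 14 of 15, with a median contrast of 3.74, and 14 of 15 were also above after scaling to the poly-A controls. Lhx2, a LIM homeobox factor that maintains follicle stem cells, gave 1028, 1212 and 1237 in hair follicle and 3.7 to 4.9 in the intestine. Tbx1 gave 551, 777 and 410.2 against 3.3 to 4.3, and Foxc1, which keeps bulge cells quiescent, gave 772, 530.5 and 568 against 3.4 to 7.4. The highest intestinal value of Foxc1 was in villus replicate 3, still under the receptor level. Gli2, a transcription factor of hedgehog signalling, gave 414, 360.2 and 276 against 6.7 to 8.8.

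Of 26 keratins of epidermis and follicle, 13 were above and none below, and the median contrast was 0.65 (11 above, 7 below and a median of -0.55, beside -1.26 for all genes, after scaling to the poly-A controls). Krt15, a bulge keratin, read 5824, 4542 and 5317 in hair follicle, 25.1, 28.6, 35.2 and 39 in GFPbright, 8.5, 20.4 and 30 in GFPdim and 10.1, 9.7 and 8.0 in villus, so that its margin of 7.37 was set by GFPbright. Krt77 read 1068, 2339 and 1742 against 5.3 to 7.6 in the intestine.

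Anchorage to the basement membrane was a second block. Of 23 hemidesmosome and basement membrane genes, 17 were above and none below, with a median contrast of 2.98 (13 above and none below after scaling to the poly-A controls). Npnt, which encodes the integrin ligand nephronectin, gave 625, 702 and 529 in hair follicle and 3.6 to 7.7 in the intestine. Egfl6, a matrix protein of the upper bulge, gave 349, 323 and 377 against 3.9 to 6.1, and Col4a1, a type IV collagen chain, gave 388, 818 and 409.7 against 4.9 to 11.8. Itgb4, the hemidesmosome integrin chain, was above all 3 but also present in the gut, with 609.8, 675 and 817 in hair follicle and 202, 264 and 262 in villus, where it was higher than the 78.9, 89.1, 66.7 and 77.1 of GFPbright, and its call was lost with the poly-A scaling.

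Desmosome genes split between the tissues. All 10 were called, 7 above and 3 below, and 4 were above and 3 below after scaling to the poly-A controls. Dsg1a, with 127, 270.2 and 150.1 in hair follicle and 3.1 to 4.7 in the intestine, and Dsc1, with 44.8, 177 and 120.1 against 2.7 to 3.9, lay under the receptor level on every intestinal array. Dsc2 and Pkp2, the desmocollin and plakophilin of simple epithelia, were below, with 36.7, 18.2 and 34.1 against 290.2, 407 and 854 for Dsc2 and 31.5, 17.2 and 17.1 against 225, 273 and 357 for Pkp2. Both were also present in hair follicle. Pkp1 was above with a wide spread among stages, at 1687, 1490.3 and 1394 in hair follicle, 262, 277, 269 and 242 in GFPbright, 249.7, 260.5 and 218 in GFPdim and 20.6, 23.4 and 21.2 in villus.

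Cornified envelope and suprabasal genes were above in 28 of 36 and below in 1, with a median contrast of 3.44. The follicle samples thus held transcripts of genes listed for suprabasal layers beside those listed for basal and bulge cells. Which of the sorted cells carried them was not tested. The scaling to the poly-A controls left 20 above and 4 below. Sprr2a1, a small proline-rich envelope protein, was the member below. It read 17.8, 10.5 and 19.4 in hair follicle, 26.8, 40.8, 43.2 and 23.2 in GFPbright, 33.9, 86.1 and 74.4 in GFPdim and 6593, 7463 and 7208 in villus. Its call rests on a margin of -1.07 and was lost without hair follicle replicate 2, where the contrast was -3.69 against -3.96 ± 0.27 with all arrays. The call was also lost with the gut arrays as 1 group and in the methods' t-test. Signal of near-identical Sprr2a copies cannot be separated by such probes.

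Surface and secreted genes of the bulge and outer root sheath were above in 32 of 38 and below in none, with a median contrast of 3.79 (23 above and none below after scaling to the poly-A controls). Sfrp1, a secreted Wnt antagonist, gave 1219, 1633 and 1288 in hair follicle and 4.5 to 7.3 in the intestine. Of 15 sebocyte genes 4 were above and 3 below. Without hair follicle replicate 2 they were 3 above and 4 below, and after scaling to the poly-A controls 3 and 5. Scd1, a fatty acid desaturase, read 205, 601 and 126 in hair follicle against 4.0 to 9.1 in the intestine, and Elovl4 read 55.4, 149.6 and 44.5 against 5.1 to 8.1. Replicate 2 was the highest follicle array for both. Fa2h read 11.5, 42 and 12.8 against 7.7 to 11, and its contrast fell from 0.99 to 0.39 without replicate 2. Its call was lost when replicate 2 or any intestinal array was left out. It was also lost with quantile normalization and in the methods' t-test, among other settings. Members below were Far2, a fatty acyl reductase, at 4.3, 8.1 and 4.4 against 40.5, 229 and 275, and Plin2, a lipid droplet coat protein, at 136, 269 and 109 against 481, 559.6 and 751.

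**Figure D3:**
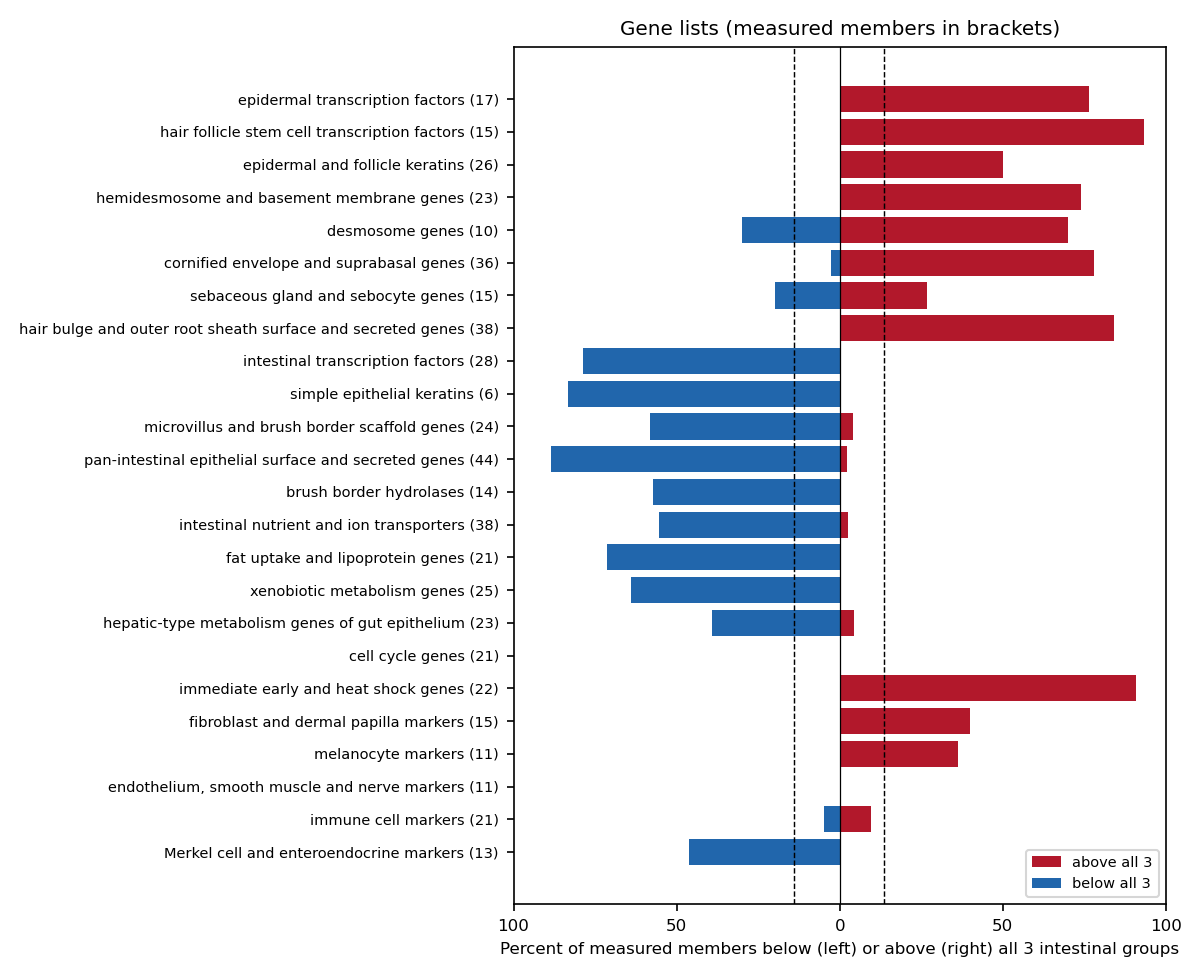
Percent of the measured members of each gene list that were above (right, red) or below (left, blue) all 3 intestinal groups, with dashed lines at the 13.7% and 13.9% of all genes. Skin lists extend to the right and gut lists to the left, desmosome and sebocyte genes extend both ways, and cell cycle genes and markers of endothelium, smooth muscle and nerve have no bar.

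On the gut side, 22 of 28 intestinal transcription factors were below and none above, with a median contrast of -3.60 (26 below after scaling to the poly-A controls). Mlxipl, a carbohydrate response factor, read 16.9, 12.2 and 17.9 in hair follicle and 582, 1059 and 1333 in the intestine. Elf3, an epithelial ETS factor, read 13.7, 14.5 and 17.8 against 488, 577 and 866. With Hnf4a and Cdx2, these 4 had the largest margins of the list, and each had a range among the 3 intestinal group means under 1 log2.

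Simple epithelial keratins were below in 5 of 6, with a median contrast of -5.82. Krt19 read 12.1, 10.6 and 7.1 in hair follicle and 782, 2587 and 4839 in the intestine, and Krt8 read 70.7, 68.5 and 112 against 2860.2, 5407 and 6612. Krt18, the partner of Krt8, was lowest in villus within the gut, at 588, 554 and 448, and there still above the 37.9, 62.1 and 59.8 of hair follicle. Krt7 followed the same order, at 134, 142 and 114 in villus and 4.8, 5.1 and 8.5 in hair follicle.

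Surface and secreted genes shared along the whole gut lineage had the largest shift of the lists, with 39 of 44 below, 1 above and a median contrast of -6.04 (41 below and 1 above after scaling to the poly-A controls). The list was made of genes held to be shared along the gut, so its shift follows in part from its definition. The exception was Fxyd3, a regulator of the sodium pump, with 4815, 5026 and 3756 in hair follicle, 318, 349, 146 and 366 in GFPbright, 831, 734 and 823 in GFPdim and 160.1, 153 and 129 in villus. Microvillus scaffold genes were below in 14 of 24 (17 after scaling to the poly-A controls). Vil1 (villin) read 7.7, 9.3 and 5.8 in hair follicle, 888, 857, 1016 and 839 in GFPbright, 1309, 1459 and 1499 in GFPdim and 6639, 6687 and 6447 in villus. The brush border genes Myo1a, Eps8l3 and Myo7b had margins of -5.97, -5.52 and -5.40, with GFPbright as the nearest group. Myo1e was the member above, at 295, 201 and 235 against 26.5 to 169, with an adjusted p of 0.0389 in limma that was lost when any 1 villus array or hair follicle replicate 1 or 3 was left out (contrast 1.83 to 1.99, against 1.97 ± 0.18 with all arrays).

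Genes of digestion and uptake were below in a majority of members, though less uniformly along the lineage. Brush border hydrolases were below in 8 of 14, transporters in 21 of 38, fat uptake genes in 15 of 21 and xenobiotic metabolism genes in 16 of 25, with median contrasts of -3.55, -3.72, -3.74 and -4.63. After scaling to the poly-A controls the counts below in that order were 14, 32, 18 and 21. Mgam (maltase-glucoamylase) read 6.2, 4.7 and 6.0 in hair follicle, 592, 463, 442 and 560.5 in GFPbright, 623, 720.3 and 1305 in GFPdim and 4433, 4566 and 3222 in villus. Enpep, a brush border aminopeptidase, read 3.8, 5.1 and 4.3 in hair follicle, 14.3, 29.5, 52.2 and 21.4 in GFPbright, 428, 675 and 838 in GFPdim and 3487, 3620 and 3034 in villus. Apoa1, the main protein of HDL, read 8.5, 6.5 and 5.8 in hair follicle, 52.1, 104, 114 and 42.3 in GFPbright, 881, 783 and 1027 in GFPdim and 12744, 12698 and 12421 in villus. For Enpep and Apoa1 the GFPbright arrays lay much nearer to hair follicle than to villus, and the margins of -2.58 and -3.38 are those to GFPbright.

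Other members were high from the stem cell on. Akr1c12, an aldo-keto reductase, read 4.8, 3.9 and 4.6 in hair follicle and 711, 902 and 1282 in the intestine, and Ugt2b34, a glucuronosyltransferase, read 4.9, 3.1 and 3.6 against 550.3, 1006 and 3110.3. Aqp1 was highest in GFPbright, at 1142, 1069.5, 1336 and 1080.1, against 7.0, 7.7 and 7.0 in hair follicle and 307, 377 and 699.8 in villus. Aqp3, the skin water and glycerol channel, was the transporter above all 3, at 807, 406 and 1048 in hair follicle and 6.9, 10.6 and 159.5 in the intestine. Probes for Akr1c12 and Akr1c13, and for Ugt2b genes, may share signal between close relatives.

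Of 23 genes better known from liver, 9 were below and 1 above, with a median contrast of -2.20 (19 below and 1 above after scaling to the poly-A controls). Otc, a urea cycle enzyme used by gut for citrulline synthesis, read 5.1, 5.0 and 5.3 in hair follicle and 819.7, 1153 and 1282 in the intestine. Cps1, the urea cycle entry enzyme, read 11.2, 25.4 and 12.1 in hair follicle, 6548, 6576, 5871 and 6300.1 in GFPbright, 5117, 5154 and 4936 in GFPdim and 755, 916 and 1229.9 in villus, and Fbp1, an enzyme of gluconeogenesis, read 4.4, 3.8 and 3.9 against 255, 437 and 747. Cps1 was thus highest in stem cells and lowest in villus within the gut. Fah, the last enzyme of tyrosine breakdown, went the other way, at 105, 82 and 106 in hair follicle and 10, 17.3 and 19.6 in the intestine.

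Gene families were read in the same way, by their members above and below all 3 groups. With 13.7% and 13.9% of all genes called, members on both sides are no property of a large family, and the values below describe which members they were. Of 41 keratins, 15 were above and 5 below (11 and 17 with the poly-A scaling). Of 7 galectins, Lgals7 and Lgals1 were above and 3 below under either scaling, among them Lgals4 at 51.8, 35.5 and 53.4 in hair follicle against 2963, 4558 and 5651. Of 20 claudins, 3 were above and 6 below (1 and 15 with the poly-A scaling). Cldn1, which seals the epidermal barrier, read 409.9, 645 and 516 in hair follicle against 3.8 to 4.5, whereas Cldn15, which forms a sodium pore in the gut, read 18.8, 10.2 and 17.4 against 553, 758 and 1094. Of 5 GATA factors, Gata3 was above and Gata4 and Gata6 below, with Gata6 at 24.7, 19 and 34.9 against 263, 501 and 662.

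Annexins were above in 6 and below in 3 of 11, or 3 and 4 with the poly-A scaling, with Anxa1 at 2867, 2216 and 2634 in hair follicle against 5.6 to 19.6 and Anxa13 at 6.8, 4.8 and 6.1 against 90.2, 976 and 1408. The 4 L6 membrane proteins were all called under either scaling, with Tm4sf1 above (377, 262 and 292 against 4.2 to 6.5) and 3 below, of which Tm4sf5 read 5.1, 6.5 and 4.9 against 256, 666 and 2588. Aquaporins were above in 3 and below in 3 of 11 (1 and 8 with the poly-A scaling). Transglutaminases were above in 2 and below in 1 of 6 (1 and 4 with the poly-A scaling), and Tgm5 read 1332, 1375 and 1259 against 5.5 to 8.2 and Tgm2 read 15.7, 11.7 and 13.2 against 118, 327 and 544. In each of these pairs 1 paralogue was bright in hair follicle and its relative bright in the gut. This follows from the choice of members, which took the largest margins of each direction.

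Transporters and enzymes gave the largest families. Of 296 solute carriers, 43 were above and 61 below, 14.5% and 20.6% of the family (15 and 184 genes with the poly-A scaling). Of 66 cytochrome P450 genes 6 were above and 8 below, which is 9.1% and 12.1% and under the shares over all genes (2 and 44 genes with the poly-A scaling). Slc44a2, a choline transporter-like protein, read 2054, 1656 and 2095 in hair follicle against 11.5, 37.1 and 129.6, and Slc27a2, a fatty acid transport protein, read 6.6, 6.1 and 5.5 against 439.5, 844 and 2065. Slc2a1 (GLUT1) was above, at 1063, 615 and 736 against 30.5, 53.1 and 91. Slc2a2 (GLUT2) was below by a margin of -0.93 only, and its call was lost with an offset of 16, with the gut arrays as 1 group and in the methods' t-test. GFPbright read 7.2, 12.2, 11.7 and 9.6 against 5.4, 6.0 and 4.4 in hair follicle while villus read 3248, 2489 and 2659. Cyp1b1 and Cyp4v3 lay at the opposite ends of the P450 family, with margins of 4.28 and -3.45.

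Nuclear receptors had 6 above and 14 below of 41 (4 and 30 with the poly-A scaling). Rora was above, at 168, 102 and 99.7 against 4.6 to 6.4, and Nr1i2, the xenobiotic receptor PXR, was below, at 4.8, 6.1 and 4.8 against 81, 105 and 281. Forkhead factors were above in 5 and below in 3 of 36, or 13.9% and 8.3%, which is near or under the shares over all genes (2 and 18 with the poly-A scaling), with Foxa3 at 5.8, 5.4 and 4.8 against 38, 136 and 179.7. Sox factors were above in 3 and below in 2 of 19, or 15.8% and 10.5% (2 and 13 with the poly-A scaling), and Sox21 read 47.8, 35.7 and 98.2 against 3.6 to 4.9. Clade B serpins were above in 7 and below in 2 of 17 (5 and 7 with the poly-A scaling), with Serpinb11 at 521, 255 and 243 against 4.3 to 5.9 and Serpinb1a at 24.6, 27.5 and 30.4 against 377, 951 and 3445.

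Other families were called on 1 side only with the deposited normalization. Of 14 laminin and type IV collagen chains, parts of the basement membrane, 11 were above and none below (8 and 2 with the poly-A scaling). Of 10 frizzled receptors, which bind Wnt ligands, 7 were above and none below (4 and 1). FGF receptors were above in 3 of 5 (3 and 1). In others the balance of calls depends on the scaling. Hox genes were above in 16 of 34 (9 above and 14 below with the poly-A scaling, with a median contrast of -0.94 beside -1.26 for all genes). Kruppel-like factors were above in 9 of 14 (4 above and 5 below, with a median contrast of 0.67). Eph receptors and ephrins were above in 7 of 20 (3 above and 7 below, median -0.21) and BMP ligands in 4 of 10 (1 above and 4 below, median -0.74). The scaling lowers every contrast by the same amount, so the place of these 4 medians over that of all genes is fixed by construction. Wnt ligands were above in 7 of 19 (1 above and 10 below), with a median contrast of -0.03, near that of all genes. Glutathione transferases were below in 10 of 16 and fatty acid binding proteins in 2 of 8, with none above (13 and 6 below with the poly-A scaling).

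How constant a gene was along the gut lineage was read from the range among the 3 intestinal group means. Its median was 0.47 log2 for genes above and 0.88 for genes below, and the margin exceeded it for 1855 genes above (78.9%) and 1493 genes below (63.0%). Among genes with a margin of at least 5 the range was under 1 for 145 of 156 genes above and for 36 of 90 genes below. A range between groups at absent signal is small by construction, and the difference between both sides was not tested.

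Among strong genes, the most constant ones above all 3 were Fgfr1, Scel, Il31ra, Cavin3 and Lmo1. Fgfr1, an FGF receptor, read 567, 553 and 727 in hair follicle and 6.6 to 8.6 in the intestine, a range of 0.01 between the group means. Scel (sciellin), a precursor of the cornified envelope, read 522, 439.8 and 385 against 3.9 to 6.3. Il31ra, a subunit of the interleukin 31 receptor, read 497, 461 and 689.8 against 5.8 to 8.2. All 5 lay near or under the receptor level in the gut.

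The constant genes below all 3 had a gut level well above absent signal. Rnf186, a ubiquitin ligase, read 4.6, 5.3 and 5.5 in hair follicle, 429, 357, 344 and 288 in GFPbright, 356, 380.3 and 278 in GFPdim and 373, 369 and 292 in villus. Sgpp2, a sphingosine phosphate phosphatase, read 5.9, 17.4 and 12.5 in hair follicle and 679.7, 807 and 864 in the intestine. Myrfl read 4.6, 5.2 and 4.4 against 147, 159 and 170.4. These 3 genes were picked for a small range and a margin of at least 5 without array overlap. Their even level from crypt to villus and their distance to the follicle arrays follow from that choice. Lgals9 and Tjp3, a tight junction protein, completed the set, with ranges of 0.08 and 0.24.

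At the other end stood genes whose level differed more between gut stages than between tissues. Sox9, a factor of both stem cell compartments, read 922, 640.3 and 1159 in hair follicle, 211, 199.7, 241 and 298 in GFPbright, 64.8, 80.2 and 85.7 in GFPdim and 8.9, 7.5 and 8.3 in villus, a margin of 1.91 against a range of 4.84. Krt20, a keratin of mature villus cells, read 6.7, 6.3 and 4.5 in hair follicle, 14.2, 27.8, 28.1 and 12.5 in GFPbright, 457, 458 and 649.9 in GFPdim and 6453, 6482 and 6209 in villus, a margin of -1.75 against a range of 8.37. Both met the rule, Sox9 as a gene above and Krt20 as a gene below. The call of Krt20 was lost with the gut arrays as 1 group.

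**Figure D4:**
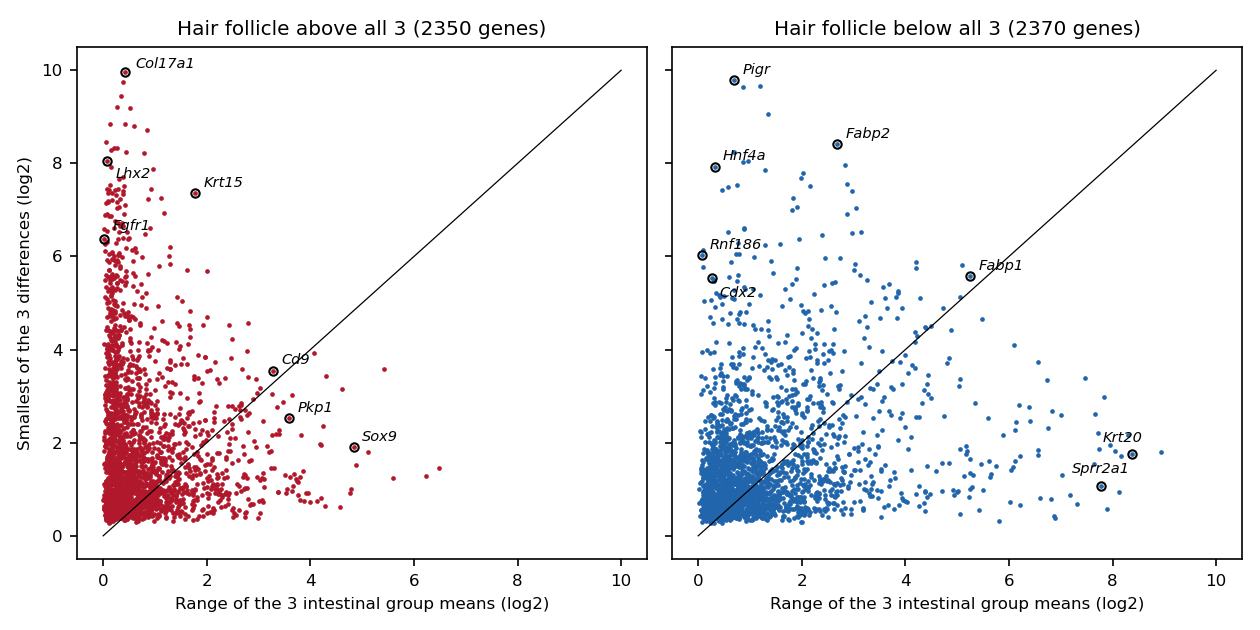
Margin, as the size of the log2 difference to the nearest intestinal group, against the range of the 3 intestinal group means in log2, for genes above (left) and below (right) all 3 groups. Points over the line differ more between tissues than between gut stages, such as Lhx2, Hnf4a and Rnf186, and points under it, such as Sox9 and Krt20, differ more between stages.

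Called genes also sat side by side on chromosomes. A run was defined as at least 4 measured neighbours called in the same direction, and 16936 genes could be placed. There were 20 runs above, with 86 genes and at most 6 in a row, and 12 runs below, with 52 genes and at most 5. Whether this number of runs exceeds that of unlinked neighbours was not tested.

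One run on chromosome 16 held Tprg, Trp63, P3h2 and Cldn1. P3h2, a collagen prolyl hydroxylase, read 366, 216 and 577 in hair follicle against 4.5 to 7.0, and Tprg read 9.2, 14.9 and 14.2 against 3.4 to 5.1. The next neighbours Lpp and Cldn16 were not called, with contrasts of 0.10 ± 0.10 and 0.07 ± 0.12, while Bcl6 beyond Lpp was above, at 4.38 ± 0.25. On chromosome 1, the serpins Serpinb3a, Serpinb11, Serpinb7, Serpinb2 and Serpinb8 formed a run of 5, flanked on one side by Serpinb12, which was not called (0.18 ± 0.10), and then Serpinb5, which was above. Serpinb3a was called at 7.5, 8.1 and 5.7 against 3.9 to 6.0, which overlap at absent signal.

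**Figure D5:**
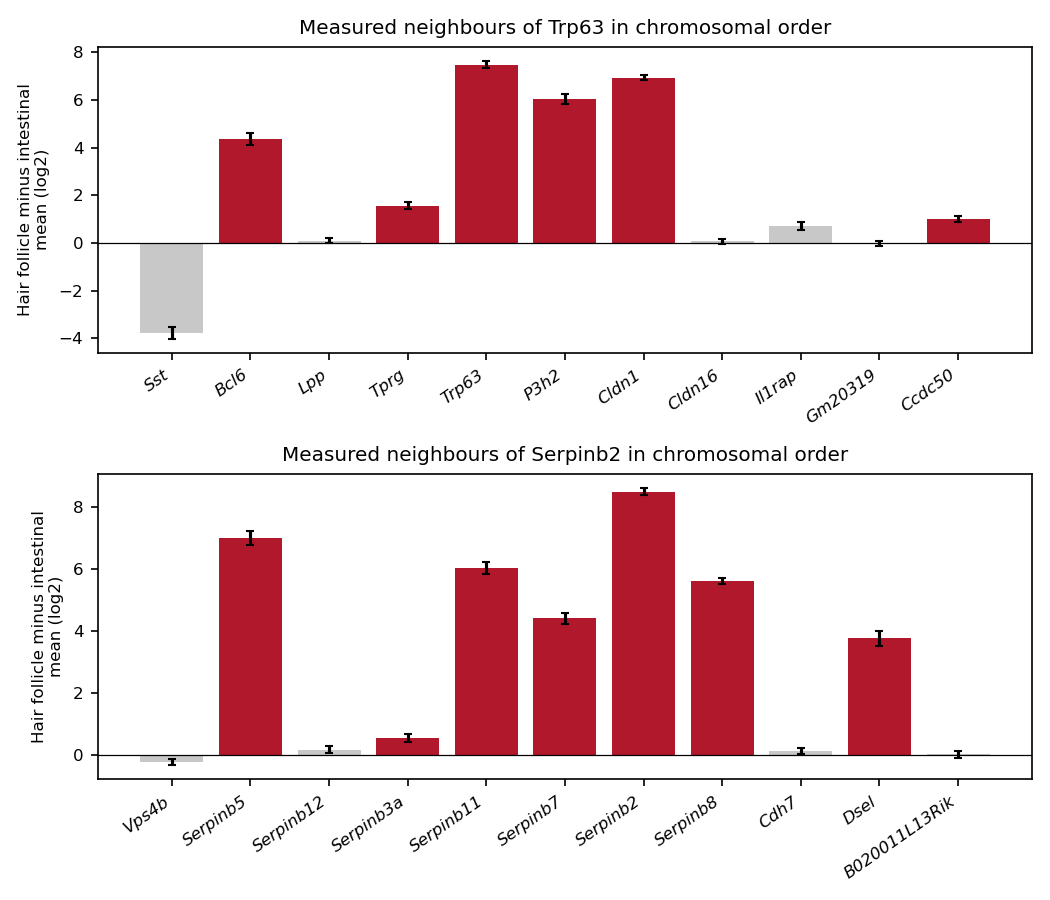
Contrast of hair follicle with the mean of the 3 intestinal group means (log2, bars with standard error of the fit) for measured genes around Trp63 and around Serpinb2 in chromosomal order, with genes above all 3 groups in red and genes not called in grey. Trp63, P3h2 and Cldn1 are between 6 and 8 while Lpp and Cldn16 beside their run are near 0, and the serpins Serpinb11 to Serpinb8 are all above 4.

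Other runs above were gene clusters. The longest, on chromosome 11, joined Hoxb5os, Hoxb6, Hoxb5, Hoxb3, Hoxb4 and Hoxb2, with Hoxb3 at 139, 156 and 152 in hair follicle against 7.4 to 10.8. On chromosome 3, S100a14, S100a16, S100a3 and S100a4 were together, and S100a4 read 534, 593 and 692 against 4.7 to 7.3. On chromosome 7, the kallikrein protease genes Klk11, Klk10, Klk8 and Klk7 were together, with Klk7, which acts in shedding of corneocytes, at 206, 641 and 565 against 7.3 to 12.1. Follicle replicate 2 was the highest of the 3 for Klk11, Klk8 and Klk7.

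Runs of unlike genes included Rictor, Osmr, Lifr, Egflam and Gdnf on chromosome 15. Osmr and Lifr encode receptors of the interleukin 6 cytokine family. Osmr read 279.8, 206 and 294 in hair follicle against 3.4 to 5.0, and Lifr read 307, 176 and 334 against 3.4 to 4.9. On chromosome 8, Mmp2, Lpcat2, Capns2 and Slc6a2 were together, with Capns2 at 1028, 864 and 780.3 against 4.5 to 5.9. Neighbours within a run could differ widely, as Egflam read 9.0, 6.7 and 7.0 against 4.7 to 5.8.

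Below all 3, a run on chromosome 10 ended in Gstt3, Gstt1 and Gstt2, theta class glutathione transferases, with Gstt1 at 7.0, 5.5 and 4.2 in hair follicle against 147, 262 and 1043. On chromosome 13, Naip2 and Naip5, sensors of bacterial proteins, lay beside Ocln and Marveld2, which encode tight junction proteins. Naip5 read 6.9, 4.4 and 5.0 against 81.7, 130.3 and 505, and Ocln read 336, 218 and 227 against 408, 567 and 666. Ocln was thus present in both tissues and lower in hair follicle by 1.79-fold, while both Naip genes were at absent signal there. Close relatives of Naip and Gstt genes may share probes.

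Some groups that differed between the tissues are not tissue markers, and their values belong beside the results. Cell cycle genes gave no call in either direction among 21, although the contrast was lower for 16 and higher for 2, with a median of -1.78 (none above and 6 below after scaling to the poly-A controls). Without hair follicle replicate 2, 1 was below and the median was -2.51. Their summed intensity was 2622 to 5182 over the hair follicle arrays, 11480 to 13190 in GFPbright, 8112 to 9300 in GFPdim and 781 to 959 in villus. Hair follicle lay between crypt and villus, so no direction held against all 3. Replicate 2 had the highest mean log2 of these genes, at 6.93 against 5.09 and 4.03.

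Immediate early and heat shock genes were above in 20 of 22 and below in none, with a median contrast of 3.13 (13 above and 1 below after scaling to the poly-A controls). Ier3 read 3606, 1935 and 3298 in hair follicle and 58.4, 111 and 221 in the intestine. Klf2 read 313, 207 and 872 against 7.5, 11 and 31.9, and Nr4a1 read 3451, 2878 and 3942 against 8.2, 155 and 529. Their summed intensity was 74920 to 102100 in hair follicle against 11930 to 20540 in GFPbright, 17760 to 18920 in GFPdim and 6240 to 8205 in villus. All groups of the gut were thus far below hair follicle. Isolation differed between the tissues, and its part in these calls cannot be told apart from that of tissue. Klf2, Klf4, Klf6 and Nr4a1 also count among the Kruppel-like factors and nuclear receptors above.

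Markers of other skin cells were partly present. Fibroblast and dermal papilla markers were above in 6 of 15 (4 above and 4 below after scaling to the poly-A controls), with a summed intensity of 1943 to 2584 in hair follicle against at most 270.3 in the gut. Sparc, a matrix glycoprotein, read 1054, 1002 and 1359 in hair follicle against 5.0 to 19.5, and Col6a1 read 248, 221 and 359 against 5.9 to 10.5. Of the 15, 8 were above the receptor level in hair follicle, and Col1a2, Pdgfra, Pdgfrb, Lum and Fap were not. Melanocyte markers were above in 4 of 11 (3 above and 4 below after scaling to the poly-A controls), at a summed 774 to 993 against at most 133.7. Dct, a pigment enzyme, read 148, 408 and 97.3 and Tyrp1 20.9, 119 and 16.4, both highest in replicate 2, and the call of Tyrp1 was lost in the methods' t-test. Their part in the calls was not tested. Mitf, also in that list and used by other cells, was highest in replicate 1, at 632, 299 and 587.

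Of 21 immune markers 2 were above and 1 below (none and 15 after scaling to the poly-A controls), 7 were above the receptor level in hair follicle and Ptprc was not, with a summed intensity of 194 to 831 in hair follicle against 2369 to 14310 in the gut. Cd207, the Langerhans cell marker, was above and highest in replicate 2, at 9.4, 139 and 13.5 against 4.5 to 5.9, a call lost in the methods' t-test, with an offset of 16 and with the poly-A scaling. Lyz2 was below, at 5.7, 4.4 and 4.5 against 194, 4399 and 12665, and its probes can also read Lyz1 of Paneth cells. Markers of endothelium, smooth muscle and nerve gave no call among 11 (7 below after scaling to the poly-A controls), with 2 above the receptor level in hair follicle. Of 13 markers of Merkel and enteroendocrine cells 6 were below (13 after scaling to the poly-A controls), among them Chgb at 5.2, 6.0 and 6.4 against 100.5, 866 and 3332, and 2 were above the receptor level in hair follicle. Without the sort that gave replicate 2 and 2 of the crypt arrays, 2291 genes were above and 2320 below, of which 2174 and 2129 were called with all arrays. Of the genes called without that sort, 99% had the same sign in the hair follicle and crypt arrays of that sort alone.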

How the data were processed

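RNA of 13 samples was hybridized to Affymetrix HT MG-430 PM arrays. The authors made the deposited intensities, which are linear values, with RMA-sketch of Affymetrix Power Tools (version not given in the sources used here). Such values are background-corrected, quantile-normalized and summarised per probe set, so changes in total RNA per cell are not visible in them. Intensities were taken to log2 without an offset. Of 45141 probe sets, 28898 had 1 gene symbol in the platform annotation, 551 several and 15692 none, and 28689 of the first matched a RefSeq gene. Each gene was read from its brightest probe set on average, which gave 17097 genes, 7180 of them with more than 1 probe set. Other probe sets of genes above made the same call in 1063 of 2008 cases and the opposite call in 4, and of genes below in 805 of 1828 cases and 14. The number of arrays limits the precision, and arrays of a group differed from each other, with 2.56% to 3.30% of values identical in any pair.

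Group means were fitted with limma 3.58.1 in R 4.3.3, and p-values were adjusted by Benjamini-Hochberg over all genes of each contrast. Where errors follow a contrast they are standard errors of that fit (3 hair follicle and 10 intestinal arrays). P-values measure the spread between these samples. The calling rule was run on 5 simulated data sets with 17097 genes, of which 200 were changed in each. There 64% of changes of 1 log2 and 96.8% of changes of 2 log2 were recovered, with 0.245% false calls. The share of false calls among genes that differ from only 1 or 2 intestinal groups was not tested. Tables and figures were made with Python 3.11.15, pandas 2.3.3 and matplotlib 3.10.9.

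Genes were named by rule. They were the 5 tissue markers and Lgr5, the 15 largest margins without array overlap per direction, up to 4 called list members in the list's direction and 2 against it, up to 2 called family members per direction, members of runs, and the 5 most constant genes of at least 5 log2 margin. Genes beside the runs around Trp63 and Serpinb2, and list members named only as not above the receptor level, were chosen after their values were seen. Members and lists were chosen with earlier results of these data known. Sorts, read from codes in the titles, were tried as a block. Residuals of crypt arrays from 1 sort correlated at 0.291, 0.451 and 0.320, those of the hair follicle array with its sort at 0.103 and 0.013. Alternatives are listed with their effects in the closing section, among them the methods' t-test (Student, at 1 percent).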

Additional observations from a re-analysis of the deposited data

Results flagged for a closer look

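Within GFPbright, the only group with 4 arrays, 1 array lay far from the others for 11 of 180 named genes tested. Chance alone flags about 1 in 20 such groups. The values set apart were those of replicate 1 for Fabp1 (98.0), Pmel (15.3) and Anxa13 (90.2), of replicate 2 for Calml4 (1572.6), of replicate 3 for Prap1 (634.1), Elf3 (840.5), Fxyd3 (146.1) and Lyz2 (2137.5), and of replicate 4 for Slc39a4 (95.9), Tgm2 (359.8) and Lmo1 (4.8). Each of these 11 genes kept its call when that replicate was left out.

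Signal outside the gene comparison was also seen. The poly-A control probe sets were above all 3 intestinal groups in 20 of 24 cases, with margins of 0.48 to 1.10. Of 15588 probe sets without a gene symbol, leaving out controls, 2102 were above all 3 groups and 781 below, with margins of up to 8.09 and down to -7.58. These were not named here.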

How the results depend on the processing

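The 180 named genes followed across settings leave out those named only as members of runs, such as Serpinb3a. Of these 180 genes, 154 kept their call and direction in all 27 settings tried and 26 lost the call in at least 1. Among them, scaling every array to the poly-A controls reversed the contrast of Fa2h to -0.20, that of Aqp9 to -0.37 and that of Aldh3b2 to -0.66. That scaling gave 809 genes above and 10344 below, a mean contrast higher for 1285 and lower for 13929 genes, arrays without overlap for 715 and 5484 genes, a median range among intestinal groups of 0.898 for genes above, and 2 runs above and 951 below. Scaling to the hybridization controls gave 1397 and 3698 genes, a mean contrast higher for 2336 and lower for 10009, arrays without overlap for 1377 and 5272, and 7 and 43 runs. Both scalings and the fit without the shared sort (2291 above, 2320 below) were chosen after the data had been seen. Quantile normalization gave 2613 above and 2181 below.

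Without the villus group 3628 genes were below, 3743 had no array overlap below, the median range was 0.197 above and 0.318 below, and there were 34 and 46 runs. With the 10 intestinal arrays as 1 group, 2688 genes were lower and 23 runs were below. An offset of 16 put the median range of genes above at 0.26, and the filter at the receptor level left 13 runs above. A margin of at least 1 left 1499 and 1367 genes with 7 and 2 runs. A margin of at least 2 left 821 and 595 genes with 2 and 0 runs, a median range of 1.45 and a median CpG count of 11 for genes below. The methods' t-test called 1543 and 1468 genes with 6 and 2 runs at its own threshold, and 1778 and 1747 genes with 7 and 3 runs after Benjamini-Hochberg adjustment. The causes of these moves were not tested beyond what each setting changes by construction.

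Leaving out 1 array at a time gave 2172 to 2336 genes above and 2163 to 2511 below, mean contrasts higher for 3624 to 3949 and lower for 4348 to 5129, arrays without overlap for 2367 to 2707 and 2510 to 2972, median ranges of 0.457 to 0.509 and 0.847 to 0.938, 17 to 20 and 9 to 15 runs, and a median CpG count of 22 and of 18 to 19. With the sort as a replicate block, 2364 genes were above and 2419 below. Of the 180 named genes followed, Myo1e lost its call under the block. The arrays carry no count of molecules, and signal near the receptor level limits what can be said of the weaker genes.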
